A study of Mus musculus with 4 samples.

Results

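The circadian clock genes described here are 10 named genes, Arntl, Clock, Per1, Per2, Per3, Cry1, Cry2, Dbp, Tef and Hlf, chosen by symbol. Each was found as 1 of the 55416 gene rows in the deposited tables. The tables hold poly-A RNA sequencing of mouse small intestinal organoids, epithelial cultures that grow as hollow bodies in a basement-membrane gel. Adult organoids (n = 2 libraries) came from C57BL/6 mice of 4 to 8 weeks and fetal organoids (n = 2 libraries) from C57BL/6 embryos at stage E15.5, and the labels give the same commercial culture medium for both. No genetic change or drug is given for either group. Nothing says that the libraries of a group came from separate animals or cultures, and each p-value is set against a spread between libraries that may be technical only. The labels give no hour of harvest or of medium change, so a difference in clock phase between the groups was not tested.

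The circadian clock is a feedback loop of transcription that runs in most cells of the body, the intestinal epithelium included. CLOCK and BMAL1, the product of Arntl, bind E-box sequences as a pair and activate the Per and Cry genes, whose proteins return to the nucleus and repress that pair. A second loop sets Arntl through the activating ROR and the repressing REV-ERB nuclear receptors. The related factors DBP, TEF and HLF, the PAR bZIP family, bind D-box sequences and carry the rhythm to output genes, among them genes of drug and nutrient handling. RNA of many of these genes rises and falls daily, so a sample of cells shows the phase at which it was taken as well as the strength of the clock.

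The 4 libraries held 10862147 to 13061585 estimated counts, and mitochondrial transcripts took 17.5% and 17.6% of adult and 6.98% and 7.82% of fetal counts. Markers of epithelium were abundant, with a summed level of 4305 and 4312 CPM (counts scaled to a common library total) in adult and 6797 and 6826 CPM in fetal libraries, the keratins Krt8 and Krt19 among them. Of 8 such markers 4 rose and 3 fell (6 and 2 with library totals, 6 and 1 on log2(TPM + 1), scalings described below). Mesenchymal markers summed to 3.24 and 3.91 CPM in adult and 60.2 and 60.6 CPM in fetal libraries, where the collagens Col3a1 and Col1a1 led. Of 10 mesenchymal markers 5 had no count in adult, and 5 of 7 tested rose. Immune markers summed to 2.28 and 2.61 CPM in adult and 10.6 and 10.3 CPM in fetal libraries, mostly Cd68 and Lyz2, and both rose, while Cd3e had no count in any library and Ptprc 1 count in all. Endothelial markers, led by Pecam1 and Tek, stayed below 1 CPM in sum. Neuronal and glial markers, Tubb3 among them, summed to 4.55 and 4.41 CPM in adult and 1.33 and 1.75 CPM in fetal libraries, and the 2 tested fell. Enterocyte markers, led by Sis and Fabp1, fell in 6 of 6 cases, from 965 and 978 CPM in sum to 20.99 and 25.5 CPM. Of 4 proliferation markers 2 rose and 2 fell (3 and 1 with library totals, 3 and 0 on log2(TPM + 1)), and their sum, mostly Mki67 and Top2a, was 2324 and 2268 CPM in adult and 1952 and 1981 CPM in fetal libraries. The part of these cell types in the clock gene results was not tested.

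Most clock genes that differed were lower in fetal organoids. Arntl, Clock, Per2, Per3 and Tef fell, by 1.6 to 2.5 times, Per1 and Dbp rose, and Cry1 and Cry2 did not pass the test. Hlf was detected in adult and listed at 0 in fetal organoids. Of the 9 members that passed the filter on low counts, 2 were called higher and 5 lower (edgeR's quasi-likelihood test, with p adjusted by Benjamini-Hochberg and called under 0.05), where 33.9% of all 14271 tested genes were called higher and 32.7% lower. At least 2-fold changes were called in 1 member upwards, Dbp, and 1 downwards, Per2, beside 13.6% and 11.6% of all genes. Adult and fetal libraries were fully apart for 7 of the 9 members and for 82.7% of all genes tested, so the members' share of separated genes was near the background. The median log2 fold change of the 9 tested members was -0.69, and that of all genes was 0.01. All fold changes are on CPM scaled by TMM, a trimmed mean of M values. With library totals in place of TMM factors the median of all genes moved to 0.25 and the calls to 6971 higher and 2976 lower, and on log2(TPM + 1) with limma the median was 0.36. The median of the members was -0.45 and -0.23 there, with 2 higher and 5 lower, and 2 higher and 4 lower, called. Of all genes, 48.8% were called higher and 20.9% lower with library totals, and 49.6% and 12.8% on log2(TPM + 1). Small changes below are therefore changes relative to the bulk of genes.

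**Figure D1:**
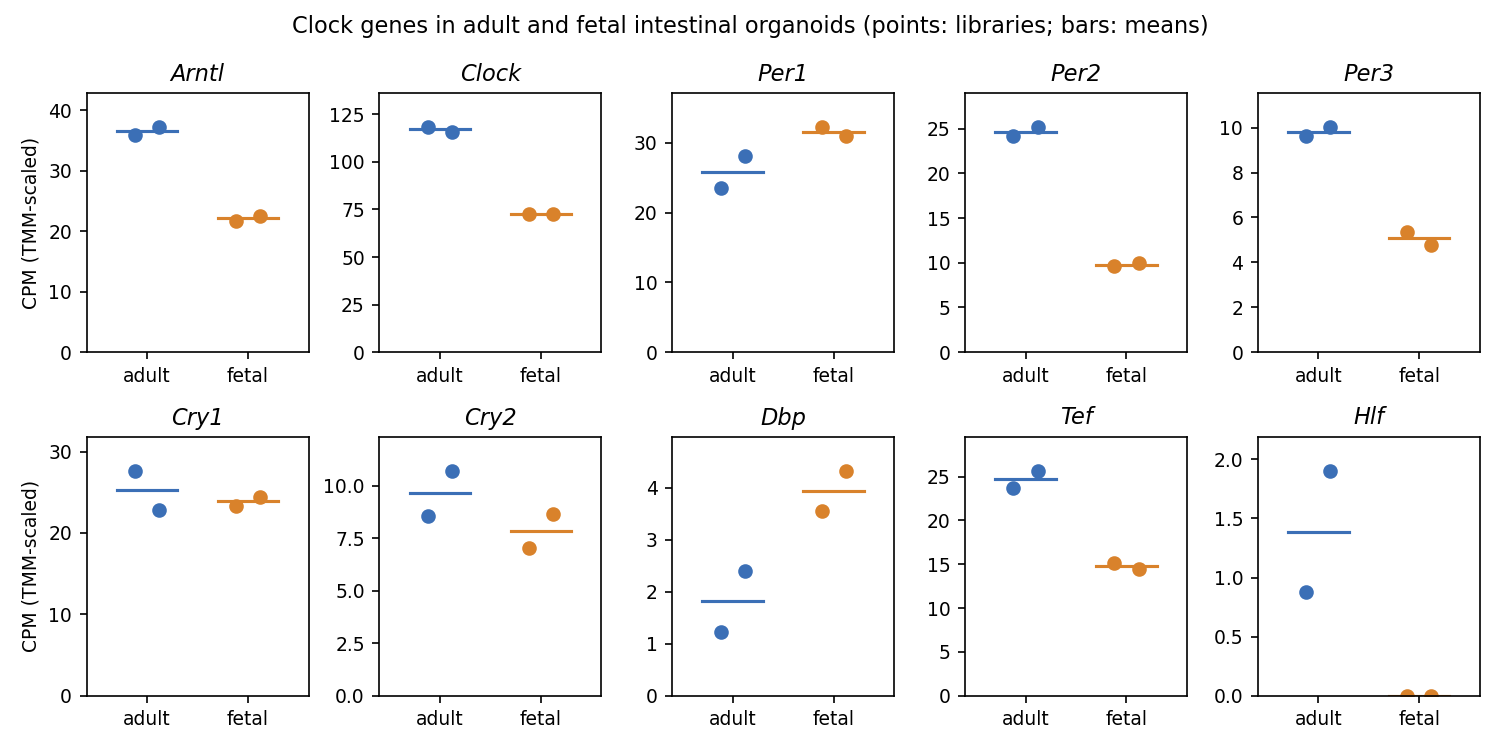
Level of each of the 10 clock genes in CPM scaled with TMM factors, on a linear axis from 0 in each panel, with points for the 2 adult and 2 fetal libraries and a bar at each group's mean. Arntl, Clock, Per2, Per3 and Tef lie lower in both fetal libraries, Per1 and Dbp higher, Cry1 and Cry2 overlap, and Hlf is at 0 in both fetal libraries.

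The activating pair was lower in fetal organoids. Clock (ENSMUSG00000029238), a bHLH-PAS transcription factor, stood at 118 and 116 CPM in the adult libraries and at 72.4 and 72.6 CPM in the fetal libraries. The libraries of each group lay close together and the groups did not overlap. The fall was -0.69 ± 0.05 on the log2 scale (SE; edgeR, Benjamini-Hochberg adjusted p = 5.52e-08). Its partner Arntl (ENSMUSG00000055116) stood at 35.9 and 37.2 CPM in adult and at 21.6 and 22.6 CPM in fetal libraries, again without overlap. The log2 fold change of Arntl was -0.72 ± 0.07 (SE; edgeR, adjusted p = 2.38e-06), so with TMM the pair fell by near-equal amounts. The falls were smaller under other scalings, though still called. With library totals they were -0.45 for Clock and -0.48 for Arntl, and on log2(TPM + 1) -0.26 and -0.37. In this bulk RNA, fewer cells that express a gene and less RNA per cell cannot be told apart.

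Each activator has a close relative that can stand in for it. Npas2, the paralog of Clock, was at 19.6 and 18.0 CPM in adult and about 15.48 CPM in both fetal libraries, a log2 fold change of -0.28 ± 0.10 (SE; edgeR, adjusted p = 0.0271). The Npas2 call was lost when adult replicate 1 or either fetal library was left out, with DESeq2 (adjusted p = 0.213, Benjamini-Hochberg) and with library totals (-0.037), and on log2(TPM + 1) its fold change was 0.06. Arntl2, the paralog of Arntl, went the other way from Arntl. It had 14 and 5 counts in the adult and 60 and 47 in the fetal libraries, or 1.23 and 0.501 against 4.18 and 3.57 CPM. Its rise was 2.12 ± 0.38 on the log2 scale (SE; edgeR, adjusted p = 0.000301) and lay between 1.65 and 2.93 when any library was dropped. Per length, Arntl stayed above Arntl2 in every library, with a ratio of their TPM (a level scaled for transcript length and library total) of 29.3 and 28.2 in adult and 3.86 and 4.79 in fetal libraries.

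The 3 Period genes, the repressors that are themselves E-box targets, did not move together. Per1 (ENSMUSG00000020893), which also responds quickly to resetting signals, stood at 23.5 and 28.1 CPM in adult and 32.2 and 30.9 CPM in fetal libraries. Both fetal libraries were above both adult libraries, but the adult libraries differed from each other by more than adult replicate 2 did from the fetal libraries. The rise of Per1 was 0.30 ± 0.09 on the log2 scale (SE; edgeR, adjusted p = 0.00935). Without adult replicate 1 it was 0.17 with adjusted p = 0.156, and the DESeq2 Wald test gave adjusted p = 0.0518 (both Benjamini-Hochberg).

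Per2 (ENSMUSG00000055866), whose loss disturbs daily rhythms of behaviour, had the largest fall among the 9 tested members. It stood at 24.2 and 25.2 CPM in adult and 9.62 and 9.95 CPM in fetal libraries, well apart. Its log2 fold change was -1.33 ± 0.10 (SE; edgeR, adjusted p = 2.13e-07). Per3 (ENSMUSG00000028957), the Period gene least needed for the loop, stood at 9.62 and 10.02 CPM in adult and 5.37 and 4.79 CPM in fetal libraries. The groups did not overlap, and the log2 fold change was -0.95 ± 0.17 (SE; edgeR, adjusted p = 0.000282).

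The make-up of the Period family differed between the groups, while its summed level overlapped. The TPM of Per1, Per2 and Per3 summed to 14.5 and 18.8 in adult and 16.6 and 16.7 in fetal libraries. Per1 gave 46.1% and 42.1% of that sum in adult and 73.7% and 68.5% in fetal libraries. Per2 gave 34.9% and 45.0% in adult and 16.1% and 22.7% in fetal libraries. The shares of Per2 depend on the transcript length that the authors' estimate assigned. Counts per TPM of Per2, relative to the median gene of the library, were 2.76 and 1.71 in adult and 2.78 and 1.97 in fetal libraries, so that its TPM differed between replicates (5.07 and 8.47 in adult, 2.67 and 3.78 in fetal) where its CPM did not.

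**Figure D2:**
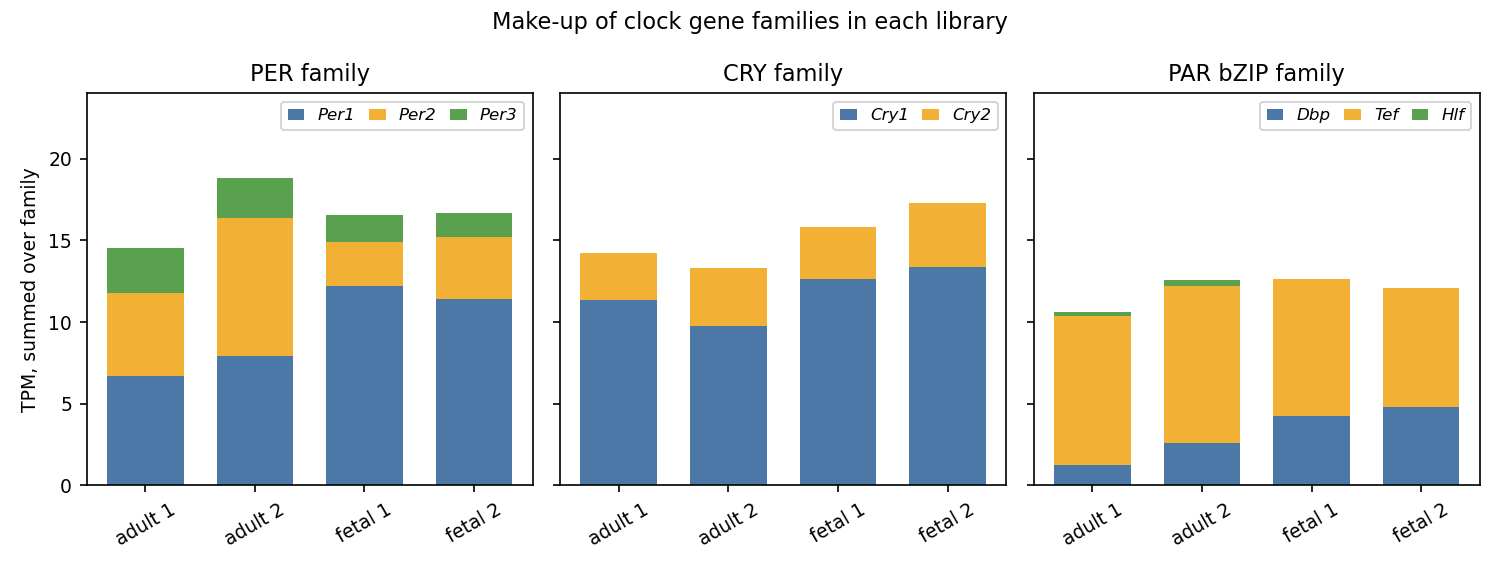
TPM of the Period, Cryptochrome and PAR bZIP genes stacked by family for each of the 4 libraries, on a linear axis from 0. Per1 takes 68.5% to 73.7% of the Period sum in fetal and 42.1% to 46.1% in adult libraries, Dbp takes more of the PAR bZIP sum in fetal libraries, and the split between Cry1 and Cry2 overlaps between groups.

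The Cryptochromes, which pair with PER proteins as the stronger repressors of CLOCK and BMAL1, were the members for which no difference was called. Cry1 (ENSMUSG00000020038) stood at 27.7 and 22.9 CPM in adult and 23.4 and 24.5 CPM in fetal libraries, and the fetal libraries lay between the adult ones. The 95% interval of its log2 fold change was -0.30 to 0.12 (edgeR, adjusted p = 0.45), and the sign turned with library totals (0.16), on log2(TPM + 1) (0.28) and without adult replicate 1 (0.06). Cry2 (ENSMUSG00000068742) stood at 8.57 and 10.7 CPM in adult and 7.04 and 8.66 CPM in fetal libraries, with overlap. Its interval was -0.67 to 0.085 (edgeR, adjusted p = 0.155), and on log2(TPM + 1) the fold change was 0.12. Per length, Cry1 exceeded Cry2 in every library, by 3.93 and 2.77 times in adult and 3.96 and 3.38 times in fetal libraries.

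The PAR bZIP output factors did not all move the same way. Dbp (ENSMUSG00000059824), a direct and strongly rhythmic target of CLOCK and BMAL1, had only 13.9 and 23.6 estimated counts in the adult and 50.6 and 57.3 in the fetal libraries, or 1.23 and 2.41 against 3.56 and 4.33 CPM. The groups did not overlap, but the adult libraries differed almost by a factor of 2. The rise was 1.14 ± 0.33 on the log2 scale (SE; edgeR, adjusted p = 0.00841), and without adult replicate 1 it was 0.70 with adjusted p = 0.118. Dbp shares 539 exon bases with Sphk2 on the opposite strand in GENCODE M21. Sphk2 was at 37.4 CPM in both adult and at 34.5 and 32.9 CPM in the fetal libraries, and the sources used here do not give whether strand was used in counting. Reads of the pair could therefore be split wrongly, and the low values of Dbp are uncertain.

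Tef (ENSMUSG00000022389), the member of the family with the highest level per length, stood at 23.7 and 25.7 CPM in adult and 15.1 and 14.4 CPM in fetal libraries, without overlap. Its log2 fold change was -0.73 ± 0.10 (SE; edgeR, adjusted p = 2.31e-05), and -0.23 on log2(TPM + 1), where it was not called (limma, adjusted p = 0.148). Hlf (ENSMUSG00000003949) had 10 and 19 counts in the adult and 0 in both fetal libraries, or 0.875 and 1.90 CPM in adult. It did not pass the filter on low counts, so it has no p-value in the test used for the other members. Against a floor of 3 counts per fetal library, Hlf was at least 6.36-fold lower in fetal organoids, and at least 4.00-fold to 8.71-fold with single libraries left out. Fitted without the filter, its adjusted p was 9.06e-09 (edgeR, Benjamini-Hochberg over 27153 genes). The DESeq2 Wald test gave a much weaker adjusted p of 0.000418 (Benjamini-Hochberg) for Hlf. In TPM, Dbp made up 11.9% and 20.5% of the family sum in adult and 33.5% and 39.8% in fetal libraries, and Tef 85.7% and 76.3% against 66.5% and 60.2%. The family sum was 10.6 and 12.6 TPM in adult and 12.6 and 12.1 TPM in fetal libraries.

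Per length, Clock led the members in both groups, at 18.2 and 18.1 TPM in adult and 15.2 and 14.8 TPM in fetal libraries. In adult libraries Arntl followed at a mean of 17.7 TPM, then Cry1 at 10.5, Tef at 9.35, Per1 at 7.31, Per2 at 6.77, Cry2 at 3.20, Per3 at 2.60, Dbp at 1.92 and Hlf at 0.335 TPM. Of these neighbours, Per1 and Per2 overlapped between libraries, as did Per3 and Dbp. In fetal libraries the order was Clock, then Arntl at a mean of 13.4 TPM, Cry1 at 12.6 and 13.35 in its 2 libraries, Per1 at a mean of 11.8, Tef at 7.84, Dbp at 4.53, Cry2 at 3.57, Per2 at 3.23 and Per3 at 1.59 TPM, with Hlf at 0. Arntl and Cry1 overlapped there, as did Cry2 and Per2. Dbp moved from the ninth to the sixth place and Per2 from the sixth to the eighth. The ratio of Arntl to Dbp in TPM, a gene of the activating arm over a gene driven by it, was 14 and 6.88 in adult and 3.14 and 2.81 in fetal libraries, without overlap. This ratio was not tested.

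Promoter windows of 9 members were found in RefSeq on GRCm38.p6 (14 windows of 300 bases, 250 before to 50 after a gene start); Per2 had no entry. They were searched on both strands for the E-box CACGTG, the related CACGTT, the D-boxes TTATGTAA and TTACGTAA, the ROR element TAGGTCA and the cAMP response element TGACGTCA. No 2 of the matches in the members' windows overlap. The stretches that hold a match are shown since they place the loop's own sequence elements beside the direction in which each gene moved. Capitals mark the match, each line runs 5′ to 3′ on the gene's strand, and distances are from the gene start to the first base of the match.
Per1, E-box, chr11:69098763-69098808, plus strand, 166 bases before: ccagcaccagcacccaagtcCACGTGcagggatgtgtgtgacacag
Cry1, E-box, chr10:85185089-85185134, minus strand, 60 bases before: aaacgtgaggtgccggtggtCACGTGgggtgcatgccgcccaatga
Tef, E-box, chr15:81802526-81802571, plus strand, 127 bases before: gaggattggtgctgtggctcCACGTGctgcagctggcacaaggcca
Tef, E-box at a second start, chr15:81811256-81811301, plus strand, 138 bases before: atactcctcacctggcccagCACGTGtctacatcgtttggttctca
Cry2, CACGTT on the opposite strand, chr2:92434210-92434255, minus strand, 166 bases before: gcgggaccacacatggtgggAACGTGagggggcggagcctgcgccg
Per3, D-box, chr4:151044843-151044890, minus strand, 205 bases before: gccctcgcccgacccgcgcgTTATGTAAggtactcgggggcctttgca
Per3, D-box, chr4:151044796-151044843, minus strand, 158 bases before: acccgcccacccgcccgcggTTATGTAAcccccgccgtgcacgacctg
Arntl, ROR element, chr7:113207521-113207560, plus strand, 30 bases after: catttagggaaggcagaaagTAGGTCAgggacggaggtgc
Hlf, cAMP response element, chr11:90390899-90390946, minus strand, 9 bases before: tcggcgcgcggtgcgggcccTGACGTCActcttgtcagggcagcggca

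The E-box was held by 4 of the 14 member windows and by 7.15% of all 32851 windows of that length. Its holders moved in different directions, since Per1 rose, Tef fell and Cry1 was not called. CACGTT was held by 2 member windows, those of Cry1 (79 bases before the start, within the Cry1 stretch printed above) and Cry2, and by 4.68% of all windows. The D-box TTATGTAA was found in 1 member window, where Per3 holds it at 2 places, and in 0.938% of all windows, while TTACGTAA was in no member window and in 0.119% of all. The ROR element was held by 2.61% and the cAMP response element by 1.79% of all windows. The windows of Clock and Dbp held no match. A match is a description of the letters and not a measured site, and no match says only that the letters are not in that window.

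Both REV-ERB genes of the second loop were lower in fetal organoids. Nr1d2, which encodes REV-ERB beta, fell from 25.7 and 23.8 to 12.5 and 12.01 CPM (log2 fold change -1.02 ± 0.10 SE; edgeR, adjusted p = 1.91e-06). Nr1d1, which encodes REV-ERB alpha, was at 13.3 and 13.8 CPM in adult and 8.44 and 8.97 CPM in fetal libraries (-0.64 ± 0.13 SE; edgeR, adjusted p = 0.000931), and it was not called on log2(TPM + 1) (limma, adjusted p = 0.114). Nr1d1 shares 263 exon bases with Thra on the opposite strand, and Thra stood at 48.1 and 50.7 CPM in adult and 24.1 and 21.7 CPM in fetal libraries, so the reads of the pair are uncertain too. Rora, with 4 to 10 counts a library, was not tested. Rorb, at 1.14 and 0.401 CPM in adult and 0.837 and 1.06 CPM in fetal libraries, was not called.

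The other repressors of the loop showed no called change. Bhlhe40, an E-box competitor also called DEC1, was at 91.0 and 88.9 CPM in adult and 88.0 and 81.5 CPM in fetal libraries (interval of the log2 fold change -0.20 to 0.03; edgeR, adjusted p = 0.183). With library totals Bhlhe40 was called higher instead (0.16; adjusted p = 0.0226), and also on log2(TPM + 1) (0.32; limma, adjusted p = 0.0172). Nfil3, the D-box repressor that opposes the PAR bZIP factors, was at 10.1 and 10.02 CPM in adult and 9.07 and 8.74 CPM in fetal libraries (interval -0.48 to 0.14), and it was above 0 with library totals (0.07) and on log2(TPM + 1) (0.18), not called in either. Ciart, also called Chrono, was at 5.95 and 4.01 CPM in adult and 5.44 and 5.70 CPM in fetal libraries (interval -0.33 to 0.63). Bhlhe41 had 1 to 8 counts a library and was not tested.

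**Figure D3:**
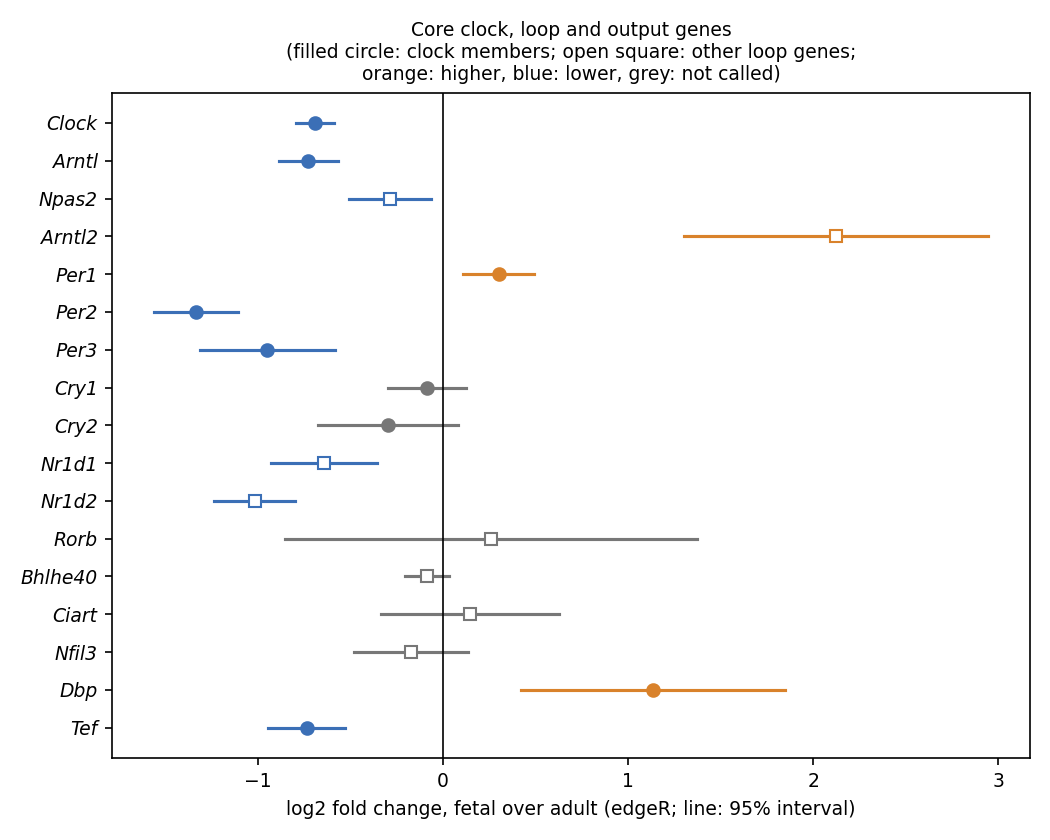
Log2 fold change of fetal over adult organoids from edgeR, with its 95% interval, for the 9 tested clock members (filled circles) and 8 further loop genes (open squares), coloured by call. Per2 and Nr1d2 lie farthest to the left, Arntl2 and Dbp farthest to the right, and the intervals of Cry1, Cry2, Bhlhe40, Ciart, Nfil3 and Rorb include 0.

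Enzymes that mark PER and CRY proteins for stability or breakdown moved both ways. Of 14 tested genes, 6 rose and 4 fell (median log2 fold change 0.07), and 9 were higher and 4 lower with library totals, and 10 and 2 on log2(TPM + 1). The kinases that phosphorylate PER, Csnk1d and Csnk1e, rose slightly, Csnk1d from 133.6 and 137 to 158 and 157 CPM (0.22 ± 0.04 SE; edgeR, adjusted p = 0.000221) and Csnk1e from 32.6 and 36.3 to 38.8 and 41.1 CPM (0.22 ± 0.07 SE; edgeR, adjusted p = 0.02). The Csnk1e call was lost without adult replicate 1, without fetal replicate 2 and with DESeq2. Csnk2a2, a catalytic subunit of casein kinase II, rose from 64.4 and 63.0 to 93.0 and 92.4 CPM. The largest falls were those of Usp2, a deubiquitinase that is itself a rhythmic output of the clock, from 6.56 and 7.02 to 1.74 and 1.82 CPM (-1.92 ± 0.24 SE; edgeR, adjusted p = 1.37e-05), and of Prkaa2, a catalytic subunit of AMPK, from 49.3 and 52.3 to 19.0 and 22.0 CPM. Gsk3b, a kinase named after its values were seen, fell by 0.53 ± 0.05 (SE) but stood at 0.11 on log2(TPM + 1).

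Of the 10 chromatin partners of the clock, 6 fell and 2 rose, all by less than 2-fold. This balance depended on the scaling, with 4 lower and 4 higher for library totals, and 1 lower and 5 higher on log2(TPM + 1). Ncor1, the co-repressor that REV-ERB recruits, fell from 390 and 370 to 229 and 233 CPM (-0.72 ± 0.04 SE; edgeR, adjusted p = 1.99e-09). Sirt1, a deacetylase, fell from 39.2 and 40.6 to 26.8 and 24.9 CPM, and was not called on log2(TPM + 1) (-0.29). Crebbp, a co-activator acetyltransferase, fell from 78.04 and 82.2 to 55.2 CPM in both fetal libraries, but on log2(TPM + 1) it was called higher (0.37; limma, adjusted p = 0.046). Among those that rose was Wdr5, a subunit of histone methyltransferase complexes (0.17 ± 0.05 SE), named after its values were seen.

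Among output genes, all 6 tested genes of the PAR bZIP list fell, 4 of them at least 2-fold (median log2 fold change -1.46), and 4 of the 6 were called lower on log2(TPM + 1). Nr1i3, the xenobiotic receptor CAR, fell from 13.3 and 12.7 to 1.12 and 0.912 CPM (-3.66 ± 0.22 SE; edgeR, adjusted p = 1.58e-08), and it shares 3304 exon bases with Tomm40l on the opposite strand. Abcb1a, a drug efflux pump, fell from 433 and 434 to 100.3 and 94.2 CPM, and Pdxk, pyridoxal kinase, from 71.0 and 76.3 to 23.5 and 21.4 CPM. Of 8 other output genes 5 fell and 1 rose. The falls were led by the sugar transporters Slc2a2 (15.9 and 14.8 to 0 and 0.456 CPM) and Slc2a5 (15.0 and 13.6 to 0.0697 and 0.38 CPM) and the sodium-proton exchanger Slc9a3 (9.01 and 11.3 to 1.05 and 0.76 CPM). Slc2a2, Slc2a5 and Slc9a3 are also products of mature enterocytes, whose 6 markers fell in the same libraries. The part of that cell type was not tested, either for these genes or for the PAR bZIP list. Nampt, the NAD salvage enzyme, and Noct, a rhythmic phosphatase, were not called, with log2 fold changes of -0.03 ± 0.04 and 0.16 ± 0.09 (SE), but both were called higher with library totals (0.21 and 0.40) and on log2(TPM + 1) (0.39 and 0.53). Wee1, a mitotic kinase under E-box control, fell by 0.74 ± 0.07, and Cdkn1a, the cell cycle inhibitor p21, was the gene that rose, from 36.2 and 38.4 to 254.7 and 248.6 CPM. These last 4 were named after their values were seen.

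Genes of the signals that reset the clock also divided. Of 6 genes of glucocorticoid input and response 5 were tested, and 3 rose and 2 fell. Fkbp5, a co-chaperone of the receptor, rose from 26.3 and 26.0 to 125.2 and 124.1 CPM (2.26 ± 0.06 SE; edgeR, adjusted p = 4.08e-12). Klf9 rose from 6.30 and 7.62 to 29.3 and 28.7 CPM, and the kinase Sgk1 from 1.84 and 2.31 to 9.76 and 11.9 CPM. The receptor gene Nr3c1 fell from 164 and 159 to 93.0 and 86.3 CPM, and Tsc22d3, another induced gene, from 20.7 and 19.3 to 12.7 and 14.9 CPM, the latter not called on log2(TPM + 1) (-0.21). Both were named after their values were seen. Of 9 genes of CREB and immediate early resetting, 2 rose and 5 fell, but 3 were lower with library totals, and on log2(TPM + 1) 4 were higher and 0 lower. Nr4a1, an immediate early nuclear receptor, rose from 8.05 and 9.12 to 24.7 and 23.2 CPM (1.48 ± 0.11 SE; edgeR, adjusted p = 1.77e-07), and Crtc2, a CREB co-activator, by 0.31 ± 0.09. Crtc1, the related co-activator, fell from 17.8 and 22.7 to 10.04 and 13.7 CPM, with a fold change of 0.007 on log2(TPM + 1), and Sik1, the kinase that restrains CRTC proteins, from 16.6 and 12.5 to 9.69 and 8.66 CPM, not called on log2(TPM + 1) (-0.22). Creb1, Fos and Egr1 also fell, by 0.27 ± 0.06, 0.56 ± 0.04 and 0.22 ± 0.03 (SE), while on log2(TPM + 1) Creb1 stood at 0.19, Fos at -0.17 and Egr1, called higher there, at 0.17. Crtc2, Creb1, Fos and Egr1 were named after their values were seen. Per1, a target of both signals in textbook accounts, rose by less than Fkbp5, Klf9, Sgk1 or Nr4a1. With TMM, 2 genes of the glucocorticoid list and 5 of the CREB list fell instead, among them Tsc22d3, Sik1, Fos and Egr1. The differences of these genes from Per1 were not tested.

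**Figure D4:**
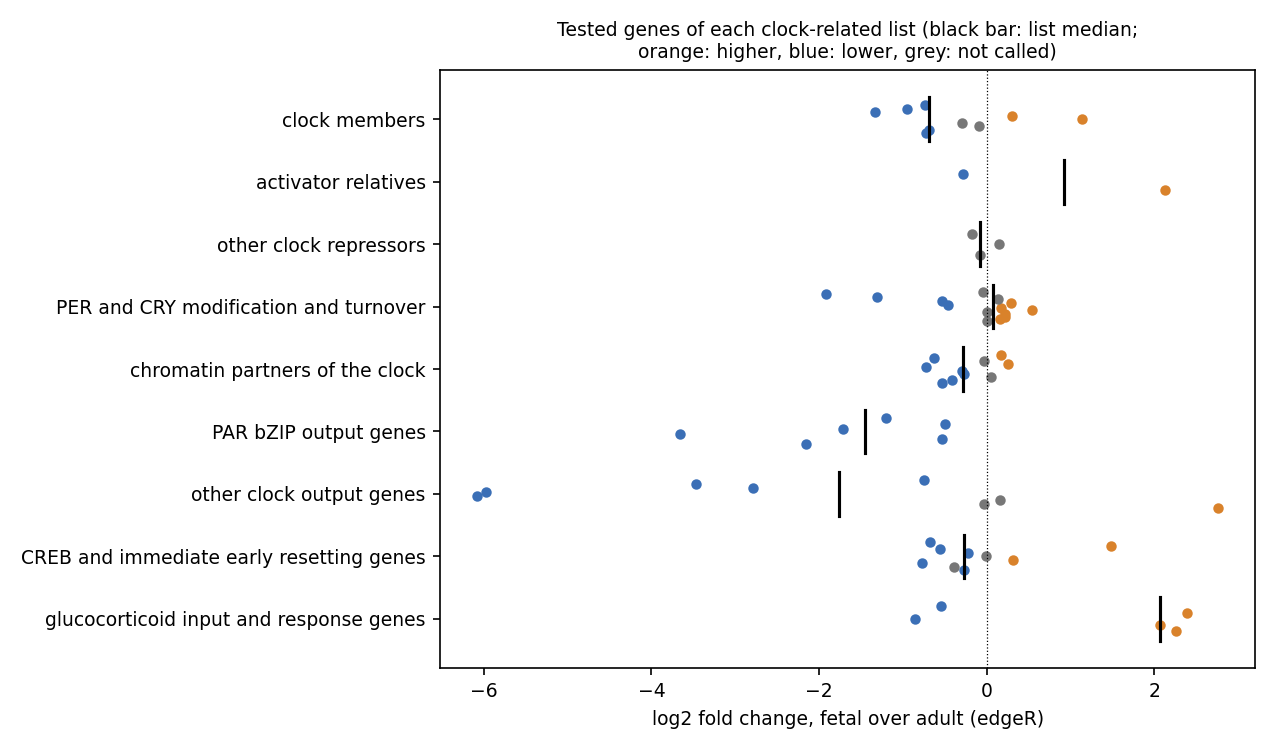
Log2 fold change of every tested gene of the clock members and 8 clock-related lists (edgeR), 1 point a gene coloured by call, with a black bar at the list median. The list of REV-ERB and ROR genes (median -0.83) is not drawn. The medians run from -1.77 for other output genes and -1.46 for PAR bZIP output genes to 2.07 for glucocorticoid input and response genes, with the clock members at -0.69.

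Over the 9 lists beside the members, 61 of 67 genes were tested, of which 15 rose (24.6%), 32 fell (52.5%) and 14 were not called, beside 33.9% and 32.7% of all genes. Scaled by library totals, 23 genes were called higher and 27 called lower (37.7% and 44.3%, beside 48.8% and 20.9% of all genes). On log2(TPM + 1) more were called higher than lower, 27 and 15 of 60 (45% and 25%, beside 49.6% and 12.8% of all genes). The share called lower was above that of all genes under each of these scalings, and the share called higher was below it. With TMM their median log2 fold change was -0.27, against 0.01 over all genes tested.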

How the data were processed

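The authors deposited estimated counts for each Ensembl gene, as RSEM gives them. A further table deposited by the authors holds TPM, in which length and library total are taken out. Per the submitters' processing notes, the tools were STAR 2.7.3a, RSEM 1.3.3, Trim Galore and FastQC, with the builds GRCm39 and mm10. Which build made the tables, and any use of strand, are not given in the sources used here. Only the promoter stretches therefore carry coordinates, those of GRCm38.p6, which may not be the build of the tables. Of 55416 identifiers, 52083 were named by GENCODE M21.

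Rounded counts entered edgeR 4.0.16 (R 4.3.3) with TMM and filterByExpr, and fetal was set against adult by the quasi-likelihood F-test (all 14271 genes kept; Benjamini-Hochberg adjustment). The script was tested on simulated data. CPM use TMM-scaled totals, and intervals are 95% intervals of that fit. Limma 3.58.1 and DESeq2 1.42.0 were alternatives among 14. Replicates differed beyond counting noise (chi-square per degree of freedom 3.30 in adult and 2.81 in fetal), so all were counted. Members and lists were chosen with earlier results of these data known. Named by rule were the members, the genes of the 3 short loop lists, Usp2, Csnk1d, Csnk1e, up to 3 called genes of each other clock list with the largest fold changes at 1 CPM or more, and the 2 most abundant genes of each marker list. A few names this rule yields are left out of the text. After the values were seen, calls per gene list were also counted under library totals and log2(TPM + 1).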

Additional observations from a re-analysis of the deposited data

How the results depend on the processing

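Of 126 values of clock members under 14 alternatives, 113 kept their direction and side of the threshold, 7 lost their call and 6 changed sign, the last all for Cry1 and Cry2. Of 583 values of other named genes, 545 kept both, 21 lost their call and 17 changed sign. Called members numbered 0 to 2 higher with single libraries left out, 0 without adult replicate 1, and 1 with DESeq2, while limma on log2(TPM + 0.1) called 2 lower, without Per2, Per3 and Tef (adjusted p = 0.0512, 0.0543 and 0.153). With library totals 2976 genes were lower, and Cry1 (0.16), Bhlhe40 (0.16), Nfil3 (0.073) and Top2a (0.10) turned positive. On log2(TPM + 1) 1796 genes were lower, 880 at least 2-fold, and on log2(TPM + 0.1) 1752 and 1018. There the log2 fold changes were, with the smaller pseudocount second, 0.28 and 0.30 for Cry1, 0.12 and 0.15 for Cry2, 0.06 and 0.07 for Npas2, 0.32 and 0.33 for Bhlhe40, 0.18 and 0.21 for Nfil3, 0.37 and 0.39 for Crebbp, 0.007 and 0.009 for Crtc1, and 0.334 and 0.335 for Top2a; the cause was not tested. Leaving out single libraries gave -0.22 to 0.06 for Cry1, -0.27 to 1.22 for Rorb and -0.10 to 0.47 for Ciart. The replicate number as a block gave 4765 genes higher and 4584 lower and changed no member's call. Equally numbered libraries did not deviate together (r = -0.03 over 11089 genes). The labels do not say whether equal numbers share an animal or day, and this correlation cannot settle it. Depth limits Dbp, Hlf, Arntl2 and Rorb, which had at most 60 counts in any library.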
